A study of Mus musculus with 50 samples.

Results

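Regulatory T cells are CD4+ T cells that restrain other lymphocytes, and the RNA of 6 genes that mark them was followed in mouse sarcomas: Foxp3, Il2ra, Ikzf2, Ccr8, Tnfrsf18 and Tnfrsf4. The members were chosen by symbol, each symbol matched 1 Ensembl identifier among the 37469 of the count table, and all 6 passed the filter on low counts and were tested. The study sequenced RNA from 48 p53/MCA sarcomas of 129/SvJae mice to ask how the immune compartment of a primary tumor and of a transplanted one responds to radiation and PD-1 blockade. Primary tumors arose in Trp53 fl/fl mice, aged 6 to 10 weeks, after an adenovirus carrying Cre recombinase and 300 µg of the carcinogen 3-methylcholanthrene (MCA) were injected into the gastrocnemius muscle, so every sarcoma carried the Trp53 deletion in its tumor cells. Transplant tumors, called Allograft in the labels, grew from 50000 cells of line 402230, put into the same muscle of syngeneic mice. All 16 transplants therefore share the tumor cells of 1 line, while the 32 primary tumors arose separately.

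Within each model the mice received 200 µg of anti-PD-1 antibody (muDX400) or isotype control antibody and then 0 or 20 Gy to the left hind limb, and tumors were harvested 3 days later. That made 8 groups, with 4 transplants or 8 primary tumors in each. The labels do not tie libraries to litters or days, so p-values measure only the spread between these libraries, which may be technical in part. The total count ranged from 31810461 to 54008259 per tumor library. Levels are given as CPM, the usual scaling of each count to its library's total, after edgeR's TMM factors, and differences as log2 fold changes from edgeR's quasi-likelihood test over 19327 genes with Benjamini-Hochberg adjustment, called at an adjusted p under 0.05. In bulk tumor RNA, fewer cells of a type and less RNA per cell cannot be told apart.

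Foxp3 is the transcription factor that sets the regulatory T cell program. Il2ra (CD25) is the high-affinity alpha chain of the interleukin-2 receptor, through which these cells take up a cytokine that they depend on and scarcely make. Ikzf2 (Helios) is an Ikaros-family factor of stable regulatory T cells. Ccr8 is a chemokine receptor of regulatory T cells that reside in tumors. Tnfrsf18 (GITR) and Tnfrsf4 (OX40) are costimulatory receptors of the TNF receptor superfamily. Foxp3 and Ccr8 are the more restricted markers, whereas Il2ra, Tnfrsf18 and Tnfrsf4 are also induced on activated conventional T cells, and Ikzf2 is also transcribed outside the lymphoid lineage.

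A pair of further libraries was labelled as the parental tumor of line 402230 and as the cell line itself, and their content went against these labels. The library labelled parental tumor held 5 counts of Ptprc (the pan-leukocyte antigen CD45), 0 of Cd3e, 0 of Cd4, 3 of C1qa, 5 of the endothelial gene Pecam1 and 2 of the hemoglobin gene Hbb-bs, while its 27341 counts of the proliferation gene Mki67 placed it above all 48 tumors in CPM. The library labelled cell line held 3779 counts of Ptprc, 36 of Cd3e, 377 of Cd4, 11698 of C1qa, 4816 of Pecam1 and 5641 of Hbb-bs. Both are described by their labels here and enter no main comparison, and the library labelled parental tumor was added to the untreated primary tumors in 1 alternative fit only. In the library labelled parental tumor Foxp3 had 1 count (exact Poisson 95% interval 0.0253 to 5.57), and Il2ra, Ccr8 and Tnfrsf18 had 0 counts each, which allows up to 3 counts or 0.0619 CPM as a one-sided limit. In the library labelled cell line Foxp3 had 20 counts (12.2 to 30.9), Il2ra 31 (21.1 to 44) and Tnfrsf18 32 (21.9 to 45.2), and Ccr8 had 2 (0.242 to 7.22). Ikzf2 was present in both, at 2.21 CPM (1.81 to 2.67) under the parental tumor label and 11.8 CPM (10.8 to 12.9) under the cell line label, here without TMM scaling. Tnfrsf4 was likewise present in both, with 35 counts (24.4 to 48.7) and 52 (38.8 to 68.2). These intervals cover counting error only. Thus 2 of the 6 genes, Ikzf2 and Tnfrsf4, had RNA in a library that held 0 counts of Cd3e.

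Across the 48 tumors the 6 genes were low but measurable. Foxp3 ranged from 0.520 to 22.4 CPM with a median of 2.57, and Ccr8, the least abundant, from 0.0274 to 4.96 CPM with a median of 0.685, which corresponded to 1 to 147 counts. Median levels were 6.99 CPM for Il2ra, 7.54 for Ikzf2, 5.25 for Tnfrsf18 and 3.49 for Tnfrsf4. Per kilobase of exon the order changed: the median was 3.44 CPM per kb for Tnfrsf18, 2.56 for Tnfrsf4, 1.22 for Il2ra, 0.650 for Ikzf2, 0.583 for Ccr8 and 0.561 for Foxp3. Per length the costimulatory receptors were thus the highest, and Foxp3 and Ccr8 lay lowest with little between them. The mean per kb of Ccr8 was below that of Foxp3 in all 4 primary groups and in transplants given both treatments, and above it in the other 3 transplant groups. Foxp3 lies on chromosome X (GRCm38, 7573644 to 7595245, plus strand) and its exons overlap those of Ppp1r3f, Ccdc22 and Gm36995 on the other strand and of Flicr on the same strand. Tnfrsf18 on chromosome 4 (156026164 to 156028895, plus strand) overlaps Gm16008 on the other strand, and Tnfrsf4 lies close by on chromosome 4 (156013843 to 156016612, plus strand). Ikzf2 lies on chromosome 1 (69531214 to 69687245, minus strand) and its exons overlap Gm29114 on the other strand. The strand setting of the counting is not given in the sources used here, so the counts of Foxp3, Ikzf2 and Tnfrsf18 are uncertain to that extent. Ppp1r3f itself was listed at 1.15 to 4.54 CPM and Gm16008 at 0.780 to 3.06 CPM. Il2ra, on chromosome 2 (11642807 to 11693193, plus strand), and Ccr8, on chromosome 9 (120092114 to 120094906, plus strand), overlapped no exon of another gene.

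The bases before the start sites are shown for the pair of genes that moved most closely together over the tumors, Foxp3 and Ccr8, and for Il2ra, the member with the largest change after radiation. Each is the 250 bases before a RefSeq start on GRCm38.p6, plus strand, 5′ to 3′, with matches to 7 searched motifs in capitals. RefSeq promoters matched 5 of the 6 genes, and Foxp3 has more than 1 start, of which the downstream one is shown.
Foxp3, chrX:7580233-7580482: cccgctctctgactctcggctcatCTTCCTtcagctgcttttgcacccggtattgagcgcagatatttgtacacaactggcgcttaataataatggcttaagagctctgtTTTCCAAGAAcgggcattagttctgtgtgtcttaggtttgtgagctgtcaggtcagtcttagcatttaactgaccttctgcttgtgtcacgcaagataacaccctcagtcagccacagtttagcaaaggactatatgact
Ccr8, chr9:120091883-120092132: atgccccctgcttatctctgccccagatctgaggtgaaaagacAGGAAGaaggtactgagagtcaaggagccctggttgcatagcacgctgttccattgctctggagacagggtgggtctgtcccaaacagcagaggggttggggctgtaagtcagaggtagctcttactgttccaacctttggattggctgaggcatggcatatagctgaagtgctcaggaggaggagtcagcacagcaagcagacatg
Il2ra, chr2:11642542-11642791: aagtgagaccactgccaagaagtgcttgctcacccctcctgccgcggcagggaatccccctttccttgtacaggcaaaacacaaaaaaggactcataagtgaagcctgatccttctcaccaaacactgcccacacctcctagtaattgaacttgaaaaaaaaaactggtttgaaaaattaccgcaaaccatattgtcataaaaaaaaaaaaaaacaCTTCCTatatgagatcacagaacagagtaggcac
The motifs, searched on both strands, were AP-1 (TGANTCA), the STAT-type GAS element (TTCNNNGAA), NFAT (TGGAAA), RUNX (TGTGGT), forkhead (TGTTTAC), NF-kB and ETS (AGGAAG). Foxp3 held an ETS match at -226 to -221, counted back from the start, and an NFAT match at -140 to -135 that overlaps a GAS match at -139 to -131. Ccr8 held an ETS match at -207 to -202 and Il2ra one at -34 to -29, so the ETS letters were the motif that the 3 windows shown shared. The 250 bases before the other Foxp3 start (chrX:7579426-7579675) held none of the 7 motifs. Among 32851 mouse promoters of this length 29.5% held the ETS letters, 18.6% the NFAT letters and 7.02% the GAS letters. A match describes letters and was not tied to any measurement here.

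Foxp3 was lowest in the isotype groups of both models and spread widely in irradiated primary tumors. In transplants it measured 1.12, 1.42, 1.62 and 1.66 CPM with isotype and 0 Gy, and 1.17, 1.56, 3.01 and 1.01 CPM with isotype and 20 Gy. With anti-PD-1 the transplants measured 4.51, 3.91, 4.42 and 2.10 CPM at 0 Gy and 2.65, 2.20, 2.53 and 6.32 CPM at 20 Gy. All 4 anti-PD-1 transplants at 0 Gy were above all 4 isotype transplants, whereas the 20 Gy groups overlapped. Such non-overlap, here and for other genes below, was not counted over all genes, so no background share stands beside it. In primary tumors the lowest, median and highest values were 0.777, 1.27 and 3.59 CPM with isotype and 0 Gy, and 2.60, 4.39 and 7.81 CPM with anti-PD-1 and 0 Gy. With 20 Gy they were 0.590, 1.45 and 8.77 CPM with isotype and 0.520, 2.49 and 22.4 CPM with anti-PD-1. The irradiated primary groups thus covered the whole range seen in the others, and 1 library, replicate 4 of the anti-PD-1 and 20 Gy group, held the value of 22.4 CPM. That library was also the highest of the 48 tumors in the summed CPM of the T cell, macrophage, dendritic cell and skeletal muscle marker lists, at 216, 4778, 44.2 and 76694 CPM, and whether its makeup set its Foxp3 level was not tested. Ordered by their mean log2 CPM, from primary tumors with anti-PD-1 and 0 Gy (2.19) to transplants with isotype and 0 Gy (0.57), each of the 7 steps between neighbouring groups was smaller than the larger of their SDs.

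Ccr8 had a like pattern at 0 Gy, at a lower level. Transplants measured 0.525, 0.458, 0.608 and 0.359 CPM with isotype and 0 Gy and 1.28, 1.07, 1.59 and 1.01 CPM with anti-PD-1 and 0 Gy, again with no overlap. At 20 Gy the transplants measured 0.428, 0.716, 0.850 and 0.279 CPM with isotype and 0.832, 0.604, 0.633 and 1.04 CPM with anti-PD-1. In primary tumors the median was 0.324 CPM (0.173 to 0.828) with isotype and 0 Gy, 1.11 CPM (0.676 to 1.63) with anti-PD-1 and 0 Gy, 0.443 CPM (0.0454 to 2.06) with isotype and 20 Gy and 0.407 CPM (0.0274 to 4.96) with both. The widest spread was again that of the irradiated primary tumors.

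**Figure D1:**
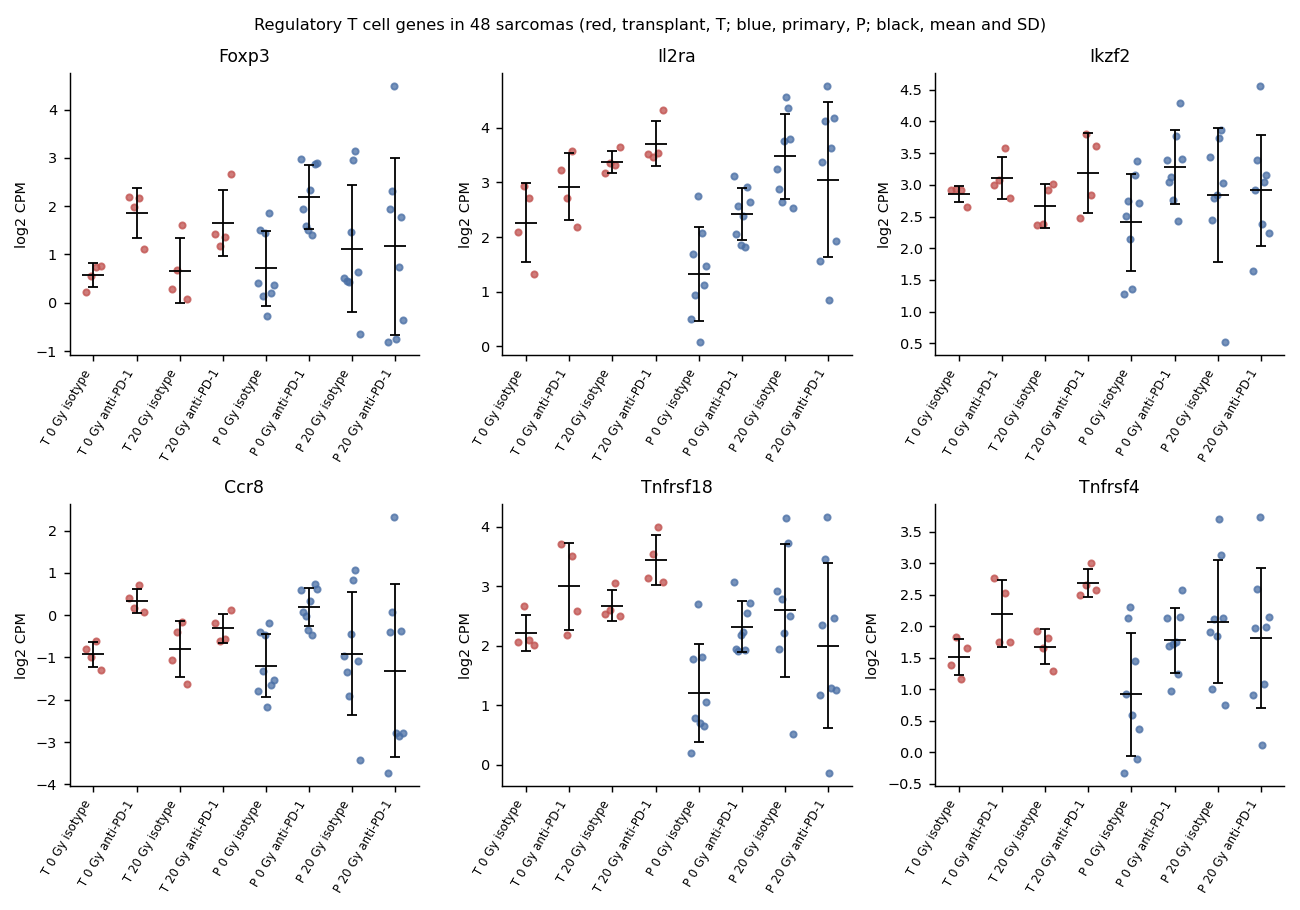
Level of each of the 6 genes in log2 CPM (vertical axis, 1 panel a gene) in every tumor of the 8 groups (horizontal axis, red for transplant, blue for primary), with the group mean and SD in black. Foxp3 and Ccr8 sit higher in the anti-PD-1 groups at 0 Gy, Il2ra sits higher in the 20 Gy groups, and irradiated primary tumors spread the most.

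Members passed the test after radiation in primary tumors. With isotype antibody 3 of the 6 genes rose from 0 to 20 Gy (Il2ra, Tnfrsf18 and Tnfrsf4), the other 3 did not pass, and none fell, where 18.3% of all genes were called. Il2ra had a lowest, median and highest level of 1.01, 2.43 and 6.65 CPM at 0 Gy and 5.76, 11.4 and 23.6 CPM at 20 Gy, so the groups overlapped only between 5.76 and 6.65 CPM. Its log2 fold change was 2.11 (SE 0.41, edgeR adjusted p = 0.000277). Tnfrsf18 had values of 1.09, 1.85 and 6.49 CPM at 0 Gy and 1.38, 6.23 and 17.6 CPM at 20 Gy, and was higher by 1.51 on the log2 scale (SE 0.435, edgeR adjusted p = 0.012). Tnfrsf4 had values of 0.748, 1.66 and 4.90 CPM at 0 Gy and 1.63, 3.99 and 13.0 CPM at 20 Gy, and was higher by 1.18 on the log2 scale (SE 0.404, edgeR adjusted p = 0.0345). For both costimulatory receptors the 2 doses overlapped over most of the unirradiated range. The differences of Foxp3 (log2 fold change 0.80, SE 0.555), Ccr8 (0.75, SE 0.607) and Ikzf2 (0.52, SE 0.347) did not pass. The median log2 fold change of the 6 genes was 0.99, against -0.01 over all genes. The Tnfrsf4 call was lost without the filter on low counts, in a fit of the 2 groups alone and with the skeletal muscle level as a covariate, with log2 fold changes of 1.17, 1.25 and 1.0.

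In primary tumors that also received anti-PD-1, none of the 6 genes passed the test between 20 and 0 Gy, 1 of them (Il2ra) had an unadjusted p under 0.05, and 11.2% of all genes were called by edgeR. Such a p was found for 5124 of all 19327 genes. DESeq2 called Il2ra and limma voom called Ccr8 instead. Ccr8 was lower at 20 Gy, with a mean log2 CPM of -1.31 against 0.190 at 0 Gy, and had -0.26 by edgeR. Replicates 1, 5, 6 and 8 of the irradiated group held only 1, 5, 4 and 4 counts of it. Il2ra measured 3.49, 5.53 and 8.63 CPM at 0 Gy (lowest, median and highest) and 1.76, 11.3 and 27.0 CPM at 20 Gy, which differed by 1.06 on the log2 scale (SE 0.397, edgeR adjusted p = 0.0737). Foxp3 had a log2 fold change of -0.07 (approximate 95% interval -1.14 to 1.01) and Tnfrsf18 of 0.19 (-0.64 to 1.02). Averaged over the antibodies, the same 3 genes were called in primary tumors, where 31% of all genes were called: Il2ra at 1.59 (SE 0.285, adjusted p = 3.63e-05), Tnfrsf18 at 0.85 (SE 0.303, adjusted p = 0.0293) and Tnfrsf4 at 0.76 (SE 0.283, adjusted p = 0.0359). Without replicate 4 of the anti-PD-1 and 20 Gy group, a check chosen after the data were seen, the Tnfrsf18 and Tnfrsf4 calls were lost at 0.63 and 0.56, and Foxp3 moved from 0.36 to -0.16. The Il2ra call held there at 1.47. Beside these calls, 8 of 9 skeletal muscle genes rose in the same comparison with a median log2 fold change of 2.54, and all 4 NK cell genes rose. Without that library 1 muscle gene and 3 NK cell genes were called. The leukocyte genes Ptprc (0.97, edgeR adjusted p = 0.000373) and Coro1a (0.56, edgeR adjusted p = 0.016) rose as well, and so did 4 of 6 macrophage genes, Cd68 (0.80), Adgre1 (0.73), C1qa (0.73) and C1qb (0.56), of which C1qb lost its call without that library. In primary tumors the summed muscle genes ranged from 63.1 to 5709 CPM and from 72.6 to 7514 CPM in the isotype and anti-PD-1 groups at 0 Gy, and from 277 to 45340 CPM and from 14.6 to 76694 CPM at 20 Gy. The summed NK cell genes ranged from 7.3 to 105.1 CPM and from 9.4 to 46.6 CPM at 0 Gy, and from 33.1 to 184.3 CPM and from 5.3 to 111.6 CPM at 20 Gy. None of the 7 T cell genes was called by edgeR, with a median of 0.61, or 0.12 without that library. With the muscle level as a covariate Il2ra stayed called, Tnfrsf18 and Tnfrsf4 did not (0.62 and 0.57). The part of the NK cell, macrophage and leukocyte genes was not tested.

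In transplants none of the 6 genes passed the test of radiation by edgeR, limma voom or DESeq2, with either antibody or averaged, where edgeR called 1.92%, 0.595% and 7.23% of all genes. A fit of the transplants alone called Il2ra in the average, at 0.90 (edgeR adjusted p = 0.0242). Il2ra measured 4.20, 7.58, 6.48 and 2.44 CPM with isotype and 0 Gy and 8.99, 10.1, 9.92 and 12.4 CPM with isotype and 20 Gy, so that all 4 irradiated transplants were above all 4 unirradiated ones. With anti-PD-1 the values were 9.30, 6.49, 11.8 and 4.49 CPM at 0 Gy and 11.4, 10.9, 11.5 and 20.0 CPM at 20 Gy, which overlapped. The averaged log2 fold change of Il2ra was 0.87 (approximate 95% interval 0.10 to 1.65, edgeR adjusted p = 0.2), and it was the 1 member with an unadjusted p under 0.05 in the averaged comparison, against 0 members under each antibody alone. In that average 3768 of all 19327 genes had such a p. Foxp3 had an averaged log2 fold change of 0.04 (-1.04 to 1.12). The radiation effects of the models were compared directly by an interaction, which edgeR called for 0.0259% of all genes and for 0 of the 6, with 0 at an unadjusted p under 0.05 and 0 by limma voom or DESeq2. For Il2ra the transplant effect minus the primary effect was -0.71 on the log2 scale (approximate 95% interval -1.66 to 0.23), so a smaller effect in transplants was not shown.

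The balance of Il2ra over Foxp3 differed with dose in the same direction in both models. The log2 CPM of Il2ra minus that of Foxp3 had a median of 0.576 in primary tumors with isotype and 0 Gy, 2.36 with isotype and 20 Gy, 0.128 with anti-PD-1 and 0 Gy and 2.04 with anti-PD-1 and 20 Gy. In transplants the 4 medians were 1.92, 2.78, 1.06 and 2.13 in the same order. These medians are a description, and the ratio of CD25 to Foxp3 RNA does not tell which cells held either.

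**Figure D2:**
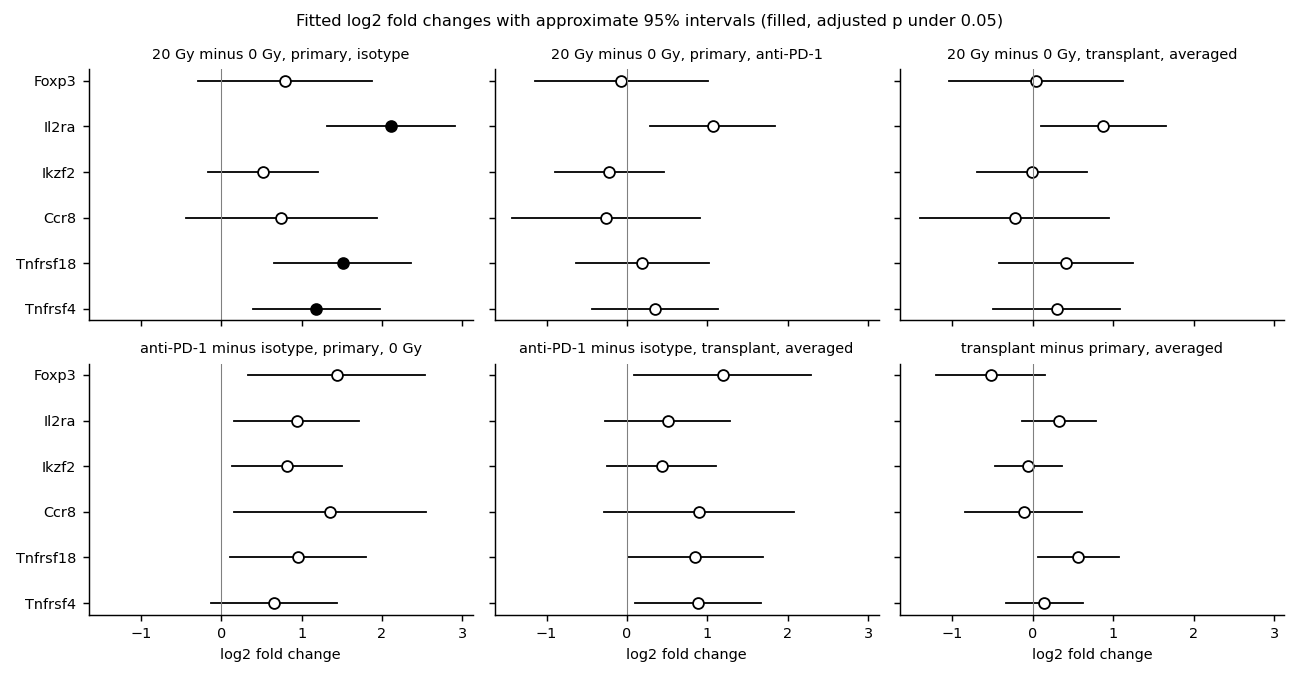
Fitted log2 fold changes of the 6 genes (vertical axis) in 6 comparisons (panels), with approximate 95% intervals and filled points for adjusted p under 0.05. Filled points appear only for Il2ra, Tnfrsf18 and Tnfrsf4 after 20 Gy in primary tumors with isotype antibody.

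The ligands of the members, from a list of 5 genes, moved with radiation in primary tumors. All 4 ligand genes that could be tested rose in the average over antibodies, where 31% of all genes were called: Tnfsf4, the OX40 ligand, Tnfsf18, the GITR ligand, and Ccl8 and Ccl1, chemokines that bind CCR8. Tnfsf4 went from a median of 0.220 CPM (0.0288 to 1.02) with isotype and 0 Gy to 2.72 CPM (1.16 to 5.22) with isotype and 20 Gy, with no overlap, and its averaged log2 fold change was 3.24 (SE 0.324, edgeR adjusted p = 9.69e-10). Tnfsf18 went from 0.295 CPM (0.134 to 0.858) to 1.97 CPM (0.817 to 4.05), an averaged rise of 2.36 on the log2 scale (SE 0.386, edgeR adjusted p = 8.66e-06). Ligand and receptor thus both passed for OX40 and GITR in this average, at ligand levels of at most 8.07 CPM. Both receptor calls were lost without replicate 4 of the anti-PD-1 and 20 Gy group (edgeR adjusted p = 0.0933 for Tnfrsf18 and 0.113 for Tnfrsf4). They were also lost with limma voom and with the muscle covariate. Ccl8 was the abundant one, at 53.2 CPM (29.1 to 206.7) with isotype and 0 Gy and 358.5 CPM (136.8 to 848.5) with isotype and 20 Gy, an averaged rise of 1.97 on the log2 scale (SE 0.359, edgeR adjusted p = 4.75e-05). Ccl1 rose by 1.41 (SE 0.542, adjusted p = 0.043) from levels below 1 CPM, and its receptor gene Ccr8 did not pass. Without replicate 4 of the anti-PD-1 and 20 Gy group Tnfsf4, Tnfsf18 and Ccl8 stayed called, and Ccl1 did not (1.15). Il2 itself stayed at or under 0.145 CPM in every tumor and was not tested. In transplants only Tnfsf4 of the 4 passed, from 0.340 CPM (0.119 to 0.495) with isotype and 0 Gy to 0.887 CPM (0.740 to 1.67) with isotype and 20 Gy and rose by 1.75 on average (SE 0.434, edgeR adjusted p = 0.00681). Tnfsf18 had -0.21, Ccl1 -0.23 and Ccl8 0.35 there. The interaction between model and dose passed for none of the 4, although 3 of them had an unadjusted p under 0.05, with -2.57 for Tnfsf18 as the largest difference (edgeR adjusted p = 0.136). An unadjusted p under 0.05 was found there for 1652 of all 19327 genes.

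The genes of the IL-2 axis list, which also holds the IL-7 receptor gene Il7r, rose in irradiated primary tumors. The list was chosen with earlier results of these data known. All 9 tested genes of that list passed in the average over antibodies, where 31% of all genes were called, with a median log2 fold change of 0.67 against 0.00 over all genes. Il2rg, the shared gamma chain, had 1.36 (SE 0.214, edgeR adjusted p = 4.42e-06), Cish, a STAT5 target that limits cytokine signalling, 1.02 (SE 0.206, adjusted p = 0.000208), and Il2rb, the beta chain, 0.87 (SE 0.312, adjusted p = 0.0295). The count of the 9 that passed ranged from 5 to 9 over the alternatives, 5 with limma voom and 7 without replicate 4 of the anti-PD-1 and 20 Gy group, where Il2rb and Stat5b lost their calls at 0.76 and 0.32. These genes also act in NK cells and effector T cells. The leukocyte gene Ptprc rose by 0.97 in the same comparison, and whether leukocyte content set the rises of the list was not tested. In transplants Il2rg alone of the list passed, at 1.04 (SE 0.3, edgeR adjusted p = 0.0218), where 7.23% of all genes were called.

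Of 16 suppressive effector genes, 8 rose and 1 fell in irradiated primary tumors in the average over antibodies, where 31% of all genes were called, among them Ctla4 at 0.97 (SE 0.374, edgeR adjusted p = 0.0429), the inhibitory receptor that competes with CD28 for its ligands, Il10 at 1.35 (SE 0.309) and Ebi3, a subunit of IL-35 and IL-27, at 1.08 (SE 0.225). The largest changes were those of Gzmb (2.11) and Il12a (2.08), which cytotoxic and myeloid cells also transcribe, and Nrp1 fell by 0.43. Of 6 other costimulatory genes 3 rose, which were Tnfrsf9 (1.06), Icos (1.01) and Tnfrsf1b (0.94). The calls of Ctla4 and Icos were lost without that same library, at 0.64 and 0.57. Of 12 transcription factors of regulatory T cells only Batf rose (1.23) and Cbfb fell by 0.34, and Ikzf4, a relative of Ikzf2, did not pass at 0.42, so the share of this list that was called lay below that of all genes. Of 9 further chemokine genes 5 rose, led by Ccl20 (2.77), Cxcl9 (2.54) and Ccl5 (2.48). In transplants the genes of these lists that rose were Ebi3 and Tgfb1 among the suppressive effectors, Tnfrsf1b, and the chemokine genes Ccl5 and Cxcl10, and the difference between the models was called by edgeR for no gene of these lists.

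**Figure D3:**
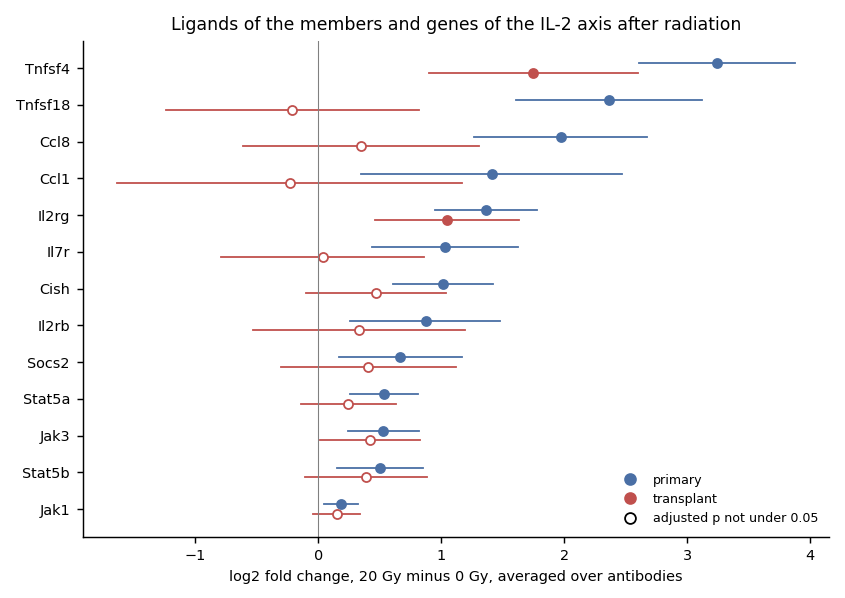
Log2 fold change from 0 to 20 Gy, averaged over antibodies (horizontal axis), of 4 ligand genes and 9 genes of the IL-2 axis (vertical axis) in primary (blue) and transplant (red) tumors, with approximate 95% intervals. All 13 points are filled, for adjusted p under 0.05, in primary tumors, and only Tnfsf4 and Il2rg are filled in transplants.

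Between the models no member was called by edgeR at the level of the whole tumor. It called none of the 6 under any of the 4 treatments, where 10.3% (isotype, 0 Gy), 7.35% (anti-PD-1, 0 Gy), 4.87% (isotype, 20 Gy) and 6.76% (anti-PD-1, 20 Gy) of all genes were called, and none in the average over treatments, where 34.8% were called. The count with an unadjusted p under 0.05 was 0 under each treatment and 1 in the average, Tnfrsf18, which limma voom called in the average and with anti-PD-1 and 20 Gy, and DESeq2 called 0. In the average 8349 of all 19327 genes had such a p by edgeR. Tnfrsf18 in transplants measured 4.13, 6.28, 4.26 and 3.99 CPM with isotype and 0 Gy, against 1.85 CPM (1.09 to 6.49) in primary tumors, with an averaged log2 fold change of 0.56 (approximate 95% interval 0.06 to 1.07, edgeR adjusted p = 0.0822). Without replicate 4 of the primary tumors given anti-PD-1 and 20 Gy edgeR called Tnfrsf18 in the average, at 0.66 (adjusted p = 0.0241). Foxp3 was at -0.52 (-1.20 to 0.15, edgeR adjusted p = 0.249), transplant minus primary, and Ccr8 at -0.11 (-0.84 to 0.61). The Foxp3 difference was -0.27 without that library and -0.10 with limma voom.

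The T cell genes of the same libraries did differ between the models: 6 of 7, all but Cd5, were higher in transplants in the average over treatments, with a median log2 fold change of 1.06, and Cd8a was higher by 1.96, whereas Cd4 had -0.07. The summed T cell genes had medians of 66.7, 125.3, 62.0 and 121.2 CPM in the 4 transplant groups and of 18.6, 43.4, 33.1 and 23.9 CPM in the primary groups, in the order isotype 0 Gy, anti-PD-1 0 Gy, isotype 20 Gy and anti-PD-1 20 Gy. Foxp3 was therefore set against the T cells of its own tumor, as log2 CPM of Foxp3 minus the mean log2 CPM of Cd3d, Cd3e and Cd3g, the chains of the CD3 complex. Untreated transplants had -3.00, -3.36, -3.00 and -1.87, and untreated primary tumors lay between -1.34 and -0.005 with a median of -0.349. No transplant overlapped a primary tumor. The means differed by -2.23 (-2.81 ± 0.647 SD, n = 4, against -0.578 ± 0.545 SD, n = 8, exact two-sided permutation p = 0.00202, the smallest this design allows, adjusted p = 0.0097 over 24 tests). The difference was -1.93 with anti-PD-1 and 0 Gy (exact permutation adjusted p = 0.0097) and -1.73 with isotype and 20 Gy (exact permutation adjusted p = 0.0162), both without overlap. With anti-PD-1 and 20 Gy the transplants had -1.79, -3.54, -3.45 and -0.851, the groups overlapped, and the difference was -2.15 (exact permutation adjusted p = 0.0303). Against Cd8a, the co-receptor of cytotoxic T cells, the 4 differences were -2.70, -2.65, -2.64 and -2.22 (exact permutation adjusted p = 0.0097 for the first 3 and 0.0303 for the last). Foxp3 RNA was thus lower in transplants per unit of CD3 or CD8 RNA under all 4 treatments, at a Foxp3 level that did not pass the test between models.

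The denominator decided this result. Against Cd4, which some myeloid cells also transcribe, the 4 differences between models were 0.11, -0.48, -0.10 and -0.12, and none passed. The calls of the anti-PD-1 and 20 Gy groups also rested on single tumors, and were lost for Cd3 and Cd8a alike without transplant replicate 1, 2 or 3 or primary replicate 4, with differences between -1.77 and -2.39, while the other 3 pairs kept their calls without any 1 transplant. No pair of doses and no pair of antibodies passed for either denominator (16 tests, the smallest exact permutation adjusted p being 0.624), and groups of 4 against 4 cannot go below p = 0.0286.

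**Figure D4:**
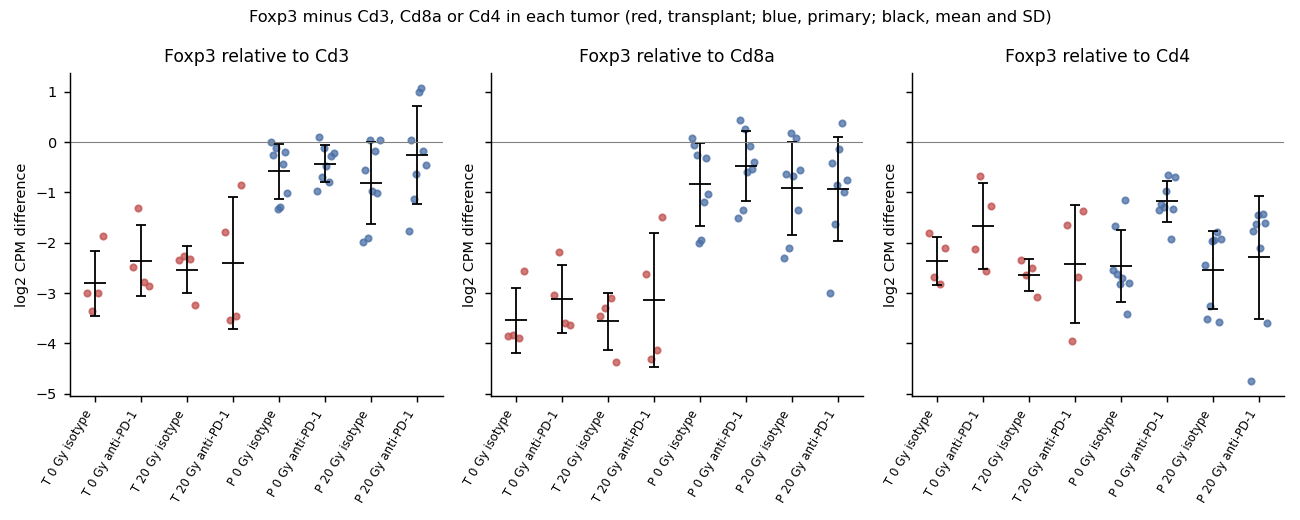
Log2 CPM of Foxp3 minus that of Cd3 (mean of 3 genes), Cd8a or Cd4 (vertical axis, 1 panel each) in every tumor of the 8 groups (red, transplant, blue, primary), with group mean and SD in black. For Cd3 and Cd8a the transplants sit below the primary tumors of the same treatment, except with anti-PD-1 and 20 Gy, where the groups overlap. The group means for Cd3 are -2.81 to -2.36 against -0.811 to -0.257, and for Cd4 the models overlap.

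The other members did not all track the T cell genes alike. Across 32 primary tumors the mean log2 CPM of the 7 T cell genes correlated with Tnfrsf18 (Pearson r = 0.930, Spearman rho = 0.906), Foxp3 (0.899 and 0.851) and Ccr8 (0.886 and 0.850), and less closely with Tnfrsf4 (0.795 and 0.737), Ikzf2 (0.706 and 0.713) and Il2ra (0.664 and 0.646). All 6 permutation p-values adjusted over 12 relations lay between 3e-05 and 6.86e-05 for r, where 3e-05 derives from the smallest p that 100000 permutations can give. Without the 2 tumors farthest from the median r was 0.907, 0.864, 0.855, 0.727, 0.675 and 0.574 in the same order, and with group means removed it was 0.968, 0.901, 0.890, 0.823, 0.677 and 0.807. In the 16 transplants Tnfrsf18 kept a close relation (r = 0.868, rho = 0.83, permutation adjusted p = 4.8e-05, 0.809 without the 2 farthest, 0.878 with group means removed) and Tnfrsf4 a looser one (r = 0.712, rho = 0.656, permutation adjusted p = 0.00337, 0.646 and 0.522), which did not pass with group means removed (permutation adjusted p = 0.137). Foxp3 had r = 0.535 and rho = 0.565 there (permutation adjusted p = 0.0397, 0.562 without the 2 farthest), which dropped to 0.134 once group means were removed (permutation adjusted p = 0.658), and Ccr8 had r = 0.531 and rho = 0.535 (permutation adjusted p = 0.0397, 0.539), which dropped to 0.218 (permutation adjusted p = 0.455). Within treatment groups, therefore, Foxp3 RNA followed T cell RNA in primary tumors, and in transplants that relation was not seen at n = 16. The difference between the models in r was not tested. Ikzf2 in transplants had r = 0.595 and rho = 0.476 (permutation adjusted p = 0.0192, 0.686) and Il2ra r = 0.490 and rho = 0.453 (permutation adjusted p = 0.0527, 0.278). With group means removed Ikzf2 had 0.444 and Il2ra 0.507, and neither passed (permutation adjusted p = 0.168 and 0.137). The rho of Ikzf2 did not pass either (permutation adjusted p = 0.0708). Points of a model share the normalization and the treatment groups.

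**Figure D5:**
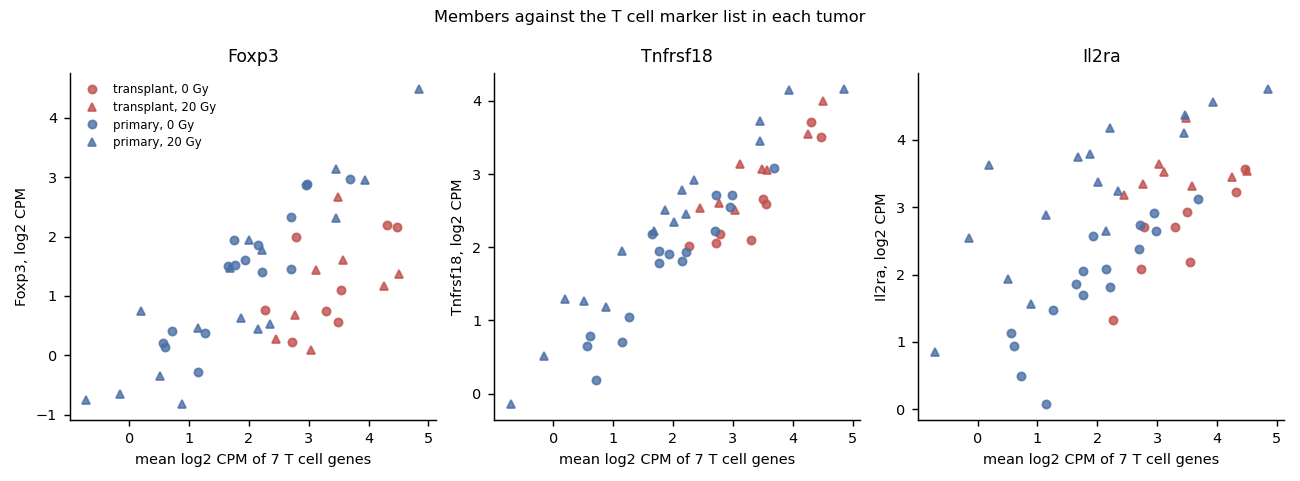
Log2 CPM of Foxp3, Tnfrsf18 and Il2ra (vertical axis, 1 panel a gene) against the mean log2 CPM of 7 T cell genes (horizontal axis) in every tumor, with model marked by color and dose by symbol. Primary tumors form a rising line for Foxp3 and Tnfrsf18, with r = 0.899 and 0.930, and transplants lie to its right for Foxp3.

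The median Foxp3 level was higher with anti-PD-1 than with isotype antibody in both models at both doses, but no member passed the test. EdgeR called 0 of the 6 genes and 0% of all genes in transplants at 0 Gy, at 20 Gy and averaged and in primary tumors at 0 and 20 Gy, and 0.0155% of all genes in primary tumors averaged. Limma voom and DESeq2 also called 0 of the 6 in each of these comparisons. The count with an unadjusted p under 0.05 was highest in primary tumors at 0 Gy, with 5 of 6 by edgeR and DESeq2 and 6 by limma voom. Of all 19327 genes, 707 had such a p there by edgeR, 752 by DESeq2 and 463 by limma voom. Foxp3 had the largest difference there, from 1.27 CPM (0.777 to 3.59) with isotype to 4.39 CPM (2.60 to 7.81) with anti-PD-1, or 1.44 on the log2 scale (SE 0.561, edgeR adjusted p = 1.0). Ccr8 had 1.35 (SE 0.609), Tnfrsf18 0.95 (SE 0.431), Il2ra 0.94 (SE 0.398), Ikzf2 0.82 (SE 0.348) and Tnfrsf4 0.66 (SE 0.401). Their median was 0.95 against -0.03 over all genes, and the 7 T cell genes had a median of 1.22 in the same comparison with none called by edgeR. In irradiated primary tumors the 6 log2 fold changes lay between -0.37 (Tnfrsf18) and 0.57 (Foxp3), with 0 at an unadjusted p under 0.05. The mean log2 CPM of Foxp3 there was 1.165 with anti-PD-1 and 1.120 with isotype. Only 1 anti-PD-1 tumor, replicate 4 at 22.4 CPM, lay above all isotype tumors, and 2 lay below all of them.

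In transplants the averaged anti-PD-1 difference was 1.19 for Foxp3 (SE 0.559, edgeR adjusted p = 1.0) and 0.88 for Tnfrsf4 (SE 0.401, edgeR adjusted p = 1.0), the 2 members with an unadjusted p under 0.05, against 0 at either dose alone. Such a p was found for 383 of all 19327 genes in the average. At 20 Gy all 4 transplants with anti-PD-1 were above all 4 with isotype for the costimulatory receptors. The share of all genes that did so was not counted. Tnfrsf18 measured 5.76, 6.05, 8.25 and 5.62 CPM with isotype and 8.78, 11.6, 15.9 and 8.38 CPM with anti-PD-1. Tnfrsf4 measured 3.76, 3.11, 3.48 and 2.41 CPM with isotype and 5.61, 6.23, 8.03 and 5.93 CPM with anti-PD-1, a log2 fold change of 1.02 (approximate 95% interval -0.10 to 2.13). The anti-PD-1 effect in transplants minus that in primary tumors was called for 0% of all genes and 0 of the 6, with 0 at an unadjusted p under 0.05 and 0 by limma voom or DESeq2, and it was 0.18 for Foxp3 (-1.14 to 1.5).

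The combination of 20 Gy and anti-PD-1 was set against untreated tumors of the same model, which are also the controls of the single treatments. In primary tumors 1 of the 6 genes rose, Il2ra, by 2.01 on the log2 scale (SE 0.408, edgeR adjusted p = 0.000555), where 18.8% of all genes were called. Foxp3 had 1.37 (SE 0.561, adjusted p = 0.0788) and Tnfrsf18 1.14 (SE 0.432, adjusted p = 0.0564), and DESeq2 called both of these and Tnfrsf4 in addition. Without replicate 4 of the combination group the edgeR values were 0.32 for Foxp3, 0.69 for Tnfrsf18 and 1.75 for Il2ra, which stayed called. In transplants none of the 6 was called by edgeR, limma voom or DESeq2, 3 had an unadjusted p under 0.05 with each tool, and edgeR called 4.41% of all genes. Such a p was found for 3238 of all 19327 genes by edgeR, 3422 by limma voom and 3456 by DESeq2. A fit of these 2 groups alone called Tnfrsf18 at 1.30 and Tnfrsf4 at 1.21 (edgeR adjusted p = 0.0239 and 0.0204). There all 4 treated transplants were above all 4 untreated ones for Foxp3, Il2ra, Tnfrsf18 and Tnfrsf4, with log2 fold changes of 1.23 (SE 0.792), 1.38 (SE 0.565), 1.26 (SE 0.61) and 1.18 (SE 0.57). The share of all genes without overlap between these groups was not counted. The medians of the 6 were 1.21 in transplants and 1.12 in primary tumors, against -0.03 and -0.01 over all genes.

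Ikzf2 had the narrowest span of group means. In transplants it measured 7.52, 7.58, 7.47 and 6.26 CPM with isotype and 0 Gy, 7.92, 8.38, 11.9 and 6.87 CPM with anti-PD-1 and 0 Gy, 5.08, 5.16, 7.54 and 8.03 CPM with isotype and 20 Gy and 5.51, 13.8, 7.11 and 12.2 CPM with both. The medians in primary tumors were 6.06, 9.55, 7.60 and 7.88 CPM in the same order, with a lowest value of 1.38 and a highest of 23.5 CPM. The means of the 8 groups spanned 0.87 on the log2 scale, against 1.62 for Foxp3, 1.66 for Ccr8, 1.77 for Tnfrsf4, 2.23 for Tnfrsf18 and 2.38 for Il2ra. Steps between neighbouring groups in these orders were smaller than the larger SD in 7 of 7 cases for Ikzf2, Tnfrsf18 and Tnfrsf4 and in 6 of 7 for Il2ra and Ccr8.

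Genes whose pattern over the 48 tumors was most like each member were taken by Spearman's rho on log2 CPM among all tested genes, as a description, since the tumors share treatment groups and normalization. For Foxp3 they were Ccr8 (0.934), Gm47050 (0.895), Izumo1r (0.870), which encodes folate receptor 4 of regulatory T cells, Rln3 (0.805) and the T cell gene Cd5 (0.790). With group means removed the first 5 were Ccr8 (0.908), Gm47050 (0.857), Cd5 (0.830), Cd6 (0.83) and Izumo1r (0.828). For Ccr8 they were Foxp3, Gm47050 (0.895) and Izumo1r (0.862). Il2ra was most like Psd4 (0.883), its partner chain Il2rb (0.882) and Coro2a (0.881). Tnfrsf18 was most like the lymphocyte genes Ptprcap (0.942), Cd2 (0.927) and Acap1 (0.920), and Tnfrsf4 most like Tnfrsf18 (0.859), Ccr7 (0.839) and Acap1 (0.814). Ikzf2 had the loosest neighbours, Gm47050 (0.754), Il18r1 (0.726) and Tox (0.719). With group means removed the closest gene was Foxp3 (0.908) for Ccr8, Il2rb (0.911) for Il2ra, Cd2 (0.932) for Tnfrsf18 and Kctd12 (0.766) for Ikzf2. Tnfrsf4 was then most like H2-DMb2 (0.822), Tnfrsf18 (0.813) and Izumo1r (0.812). The members thus fell beside different genes, Foxp3 with Ccr8, Il2ra with Il2rb and Tnfrsf18 with pan-lymphocyte genes. Tnfrsf4 lay beside Tnfrsf18 and a mixed set of genes.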

How the data were processed

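RNA from 48 tumors and 2 libraries labelled for line 402230 was prepared with a KAPA stranded mRNA-seq kit. The authors trimmed reads with Trimmomatic (version 0.36), aligned them to mm10 with STAR, and counted reads per GENCODE gene with HTSeq, and they deposited whole-number counts that were not normalized. The strand setting of the counting is not given in the sources used here. Symbols were matched for 37408 of 37469 identifiers. Here genes were filtered by filterByExpr, scaled by TMM and tested in edgeR (version 4.0.16) with robust quasi-likelihood fits over all 8 groups, which share 1 estimate of the spread. Log2 CPM used a prior count of 2. Of 21 comparisons, those within a model share their untreated controls. Ratios of Foxp3 to Cd3 or Cd8a were tested by exact two-sided permutation, and correlations with 100000 permutations (scipy, version 1.17.1). Alternatives were DESeq2 (version 1.42.0), limma voom (version 3.58.1), another scaling, no filter, own groups only, a muscle covariate, the library labelled parental tumor added to untreated primary tumors, and libraries left out. None of the 136 pairs of libraries within a group looked like 1 library deposited again, since chi-square divided by its degrees of freedom never fell under 85.6. Named genes were the 6 members, fixed lists (IL-2 axis, ligands, transcription factors, suppressive effectors, costimulatory genes, chemokines, cell type markers) and the 3 genes most alike each member (5 for Foxp3). Of the chemokine list, 1 gene is not reported here and was left out of its counts. The members and lists were chosen with earlier results of these data known. The fits were tested on simulated data. Of planted log2 changes of 1, 33% to 53% were recovered in the simulated comparisons, and of planted changes of 2, 70% to 77%. False calls were 12 of 134 for radiation in primary tumors with isotype. They were 1 of 104 for untreated models, and for anti-PD-1 at 0 Gy 4 of 130 in primary tumors and 1 of 106 in transplants.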

Additional observations from a re-analysis of the deposited data

Results flagged for a closer look

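Within groups of 4 to 8 tumors, 12 of 64 sets of values had 1 library that stood apart from the rest by Dixon's test. Chance gives about 1 in 20 for independent sets with a normal spread. These sets share libraries, and those of the members are CPM without a log, so the 2 rates cannot be compared directly. Replicate 4 of the primary tumors given anti-PD-1 and 20 Gy stood apart for 4 members: Foxp3 at 22.4 CPM (next 4.91), Ikzf2 at 23.5 (next 10.5), Ccr8 at 4.96 (next 1) and Tnfrsf4 at 13.3 (next 6.00). Among transplants given both treatments, replicate 4 stood apart for Foxp3 at 6.32 CPM (next 2.65) and for Il2ra at 20.0 CPM (next 11.5). Among untreated transplants, replicate 4 was low for Ikzf2 at 6.26 CPM (next 7.47) and high for Foxp3 relative to Cd8a at -2.57 on the log2 scale (next -3.84), and replicate 2 was high for Tnfrsf18 at 6.28 CPM (next 4.26). Among transplants given isotype and 20 Gy, replicate 3 was high for Tnfrsf18 at 8.25 CPM (next 6.05) and replicate 4 was low for Foxp3 relative to Cd3 at -3.23 (next -2.34). Among untreated primary tumors, replicate 4 was high for Tnfrsf18 at 6.49 CPM (next 3.46).

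The libraries labelled for line 402230, which enter none of the comparisons above, held RNA of the members above the 3 counts that a count of 0 allows (0.0619 CPM under the parental tumor label and 0.0728 CPM under the cell line label). The library labelled cell line held 0.485 CPM of Foxp3, 0.752 of Il2ra, 11.8 of Ikzf2, 0.776 of Tnfrsf18 and 1.26 of Tnfrsf4. The library labelled parental tumor held 2.21 CPM of Ikzf2 and 0.722 of Tnfrsf4.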

How the results depend on the processing

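The count of called members was above 0 in 3 comparisons, where 15 of 23 recomputed counts stayed within 1.5 times, and 0 in 18, where 8 of 254 recomputed counts rose above 0. Of 515 recomputed fold changes 479 kept their direction and side of the threshold, 13 lost and 8 gained the call, and 15 reversed. Of the recomputed ratios of Foxp3, 42 of 58 held, 14 lost the call and 2 reversed, and of 24 recomputed correlations 19 kept their side of the threshold and 5 lost it, all in transplants: Foxp3 (0.134), Ikzf2 (0.444), Ccr8 (0.218) and Tnfrsf4 (0.522) with group means removed, and Ccr8 (0.539) without the 2 farthest tumors. The cause of the changes was not tested. The main counts were 0 for transplant minus primary with anti-PD-1 and 20 Gy and averaged, and limma voom gave 1 for each. For radiation averaged in transplants the main count was 0, and own groups only gave 1. For radiation in primary tumors with anti-PD-1 it was 0, and limma voom and DESeq2 gave 1 each. For radiation averaged in primary tumors it was 3, and no filter, the muscle covariate, own groups only and limma voom each gave 1. For the combination in transplants it was 0, and own groups only gave 2. For the combination in primary tumors it was 1, another scaling gave 2, and DESeq2 and the library labelled parental tumor added to the untreated group gave 4 each. That library held 5 counts of Ptprc and 0 of Cd3e, so adding it lowers the untreated level of T cell genes by construction.

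Averaged between models, Ikzf2 (-0.06) turned to 0.09 and Ccr8 (-0.11) to 0.47 with limma voom. For radiation averaged in primary tumors, Foxp3 (0.36) turned to -0.13 with the muscle covariate and -0.37 with limma voom, Ikzf2 (0.15) to -0.01 with limma voom, and Ccr8 (0.24) to -0.29 and -0.80. The difference between the models in the radiation effect on Foxp3 (-0.32) turned to 0.25 with the muscle covariate and 0.29 with limma voom. With Cd4 as the denominator 2 of 12 pairs passed, adjusted over these 12, in place of 4. Neither was among the 4 pairs of models that passed for Cd3 and Cd8a. The difference between untreated models was 0.11 for Cd4, with -0.48, -0.10 and -0.12 under the other treatments, and none of these passed.

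With 1 library left out, called members ranged from 0 to 1 for transplant minus primary with anti-PD-1 and 20 Gy and averaged, and came to 1 for radiation averaged in primary tumors without replicate 4 of the anti-PD-1 and 20 Gy group, a check chosen after seeing the data. The averaged difference between models ranged from -0.11 to 0.01 for Ikzf2 and from -0.18 to 0.18 for Ccr8. For radiation averaged in primary tumors, Foxp3, Ikzf2 and Ccr8 came to -0.16, -0.02 and -0.37 without that library. The difference between the models in the radiation effect on Foxp3 ranged from -0.56 to 0.22, and the count of pairs that passed for Foxp3 relative to Cd3 or Cd8a from 3 to 4. Ccr8, at 1 to 147 counts, was limited by depth. No paired analysis was possible because replicate numbers follow accession order and pair no libraries.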

Other observations

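Set against Cd4 rather than Cd3 or Cd8a, Foxp3 differed between treatments in primary tumors. At 0 Gy the log2 CPM of Foxp3 minus that of Cd4 was -1.18 ± 0.408 (SD, n = 8) with anti-PD-1 and -2.47 ± 0.720 (SD, n = 8) with isotype, a difference of 1.29 (exact two-sided permutation p = 0.00186, adjusted p = 0.0224 over 12 pairs). With anti-PD-1 it was -2.29 ± 1.22 (SD, n = 8) at 20 Gy, lower by 1.11 than at 0 Gy (exact permutation p = 0.00637, adjusted p = 0.0382). The levels of Cd4 in these groups had medians of 8.52 CPM (isotype, 0 Gy), 9.43 (anti-PD-1, 0 Gy) and 11.7 (anti-PD-1, 20 Gy). Neither pair passed for Cd3 or Cd8a as the denominator, where the differences were 0.15 and 0.37 for anti-PD-1 at 0 Gy, and 0.17 and -0.46 for 20 against 0 Gy with anti-PD-1.

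In the comparison of the models averaged over treatments, genes of the lists for regulatory T cell function, many of which other T cells also transcribe, differed in both directions. In that same comparison 6 of 7 T cell genes were higher in transplants, with a median of 1.06, and Cd8a was higher by 1.96. Icos (1.26), Cd27 (1.18), Tnfrsf9 (0.78) and Cd28 (0.76), costimulatory receptors, were higher in transplants, as were Areg (1.84), Il10 (1.09), Ctla4 (0.79) and Tigit (0.76) among the suppressive effectors and Prdm1 (1.31) and Batf (0.82) among the transcription factors. Lrrc32, which presents latent TGF-beta on regulatory T cells, and the integrin gene Itgae were lower, both by -0.86, and Tnfrsf25 was lower at -0.73. EdgeR called 5 of the 6 costimulatory genes higher and 1 lower, 7 of the 16 suppressive effectors higher and 2 lower, and 2 of the 12 transcription factors higher and 1 lower, where 34.8% of all genes were called.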
